A study of Mus musculus with 4 samples.

Results

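The comparison covered the change in mouse liver non-parenchymal cells between 12 and 24 weeks of a diet and toxin model of metabolic dysfunction-associated steatohepatitis (MASH), profiled by 10x 5′ single-cell RNA sequencing. Its members were every barcode of the 2 MASH libraries with at least 500 gene UMIs (unique molecular identifiers, each counting 1 captured transcript), at least 300 genes and at most 15% mitochondrial UMIs. That gave 17225 cells at 12 weeks and 19953 cells at 24 weeks, or 37178 of the 82905 cells of the series. All groups were male C57BL/6J mice, 8 weeks old at the start. The MASH groups had 12 or 24 weeks of the FAT-MASH (Fibrosis and Tumor) model, a Western diet with fructose and glucose in the drinking water and weekly low-dose carbon tetrachloride (CCl4) by intraperitoneal injection. The other groups had 12 or 24 weeks of regular chow and gave 18436 and 27291 cells. The labels mention no CCl4 vehicle for the chow mice, so diet, sugar water and CCl4 cannot be told apart in the model. Livers were held on ice overnight, digested with collagenase IV and DNase I, and enriched for non-parenchymal cells on Percoll, a step that removes most hepatocytes. Each diet and week is 1 library, so no p-value is given for any difference. The chow change over the same weeks is given as the reference for week, age and batch, which cannot be told apart, except within classes with too few chow cells. Intervals below are 95% intervals and cover counting error only.

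Non-parenchymal cells are the endothelial, stellate, biliary and immune cells of the liver. Resident macrophages, the Kupffer cells, carry the lectin receptor Clec4f and the complement receptor Vsig4. In steatohepatitis they are known to be lost in part and replaced from blood monocytes by macrophages that express Trem2 and Gpnmb. Bile duct epithelium is known to expand in chronic injury, the ductular reaction, and stellate cells lay down collagen. Sinusoidal endothelium is known to lose its open, fenestrated form. The study itself asked about Plaur, the gene of the urokinase receptor uPAR.

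Most cell barcodes of the libraries carried antibody hashtags, 4 to 6 in the 12-week MASH library, 1 to 8 in the 24-week MASH library, 1 to 3 in the 12-week chow library and 1 to 8 in the 24-week chow library. The meaning of each hashtag is unknown here, so hashtags are used only as subsets of cells that show the spread within a library. Gene UMIs summed to 82606366 and 105864367 in the MASH libraries and to 52557786 and 91827150 in the chow libraries, with median UMIs per cell of 3304, 3464, 2096 and 2356. Predicted doublets, 10.6% to 23.8% of the cells of a library, were left out of all shares and class values but not of sums over all cells. The part of a gene's UMIs held by a class or by named cells was likewise taken among doublet-free cells only. Of the cells, 20.4% to 27.8% carried more than 1 hashtag, and only 24.8% to 55.6% of these were removed as doublets. Pairs of libraries shared about as many barcodes as chance gives, 592 against 538 for the 2 MASH libraries.

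Neutrophil-like, cholangiocyte-like, T-cell-like cluster 14 and monocyte- or macrophage-like cells took a larger share of the MASH cells at 24 weeks, and endothelial-like, NK-like, erythroid-like and mesenchymal cells a smaller one. The 24-week over 12-week ratio of each share is plotted for both diets below.

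**Figure D1:**
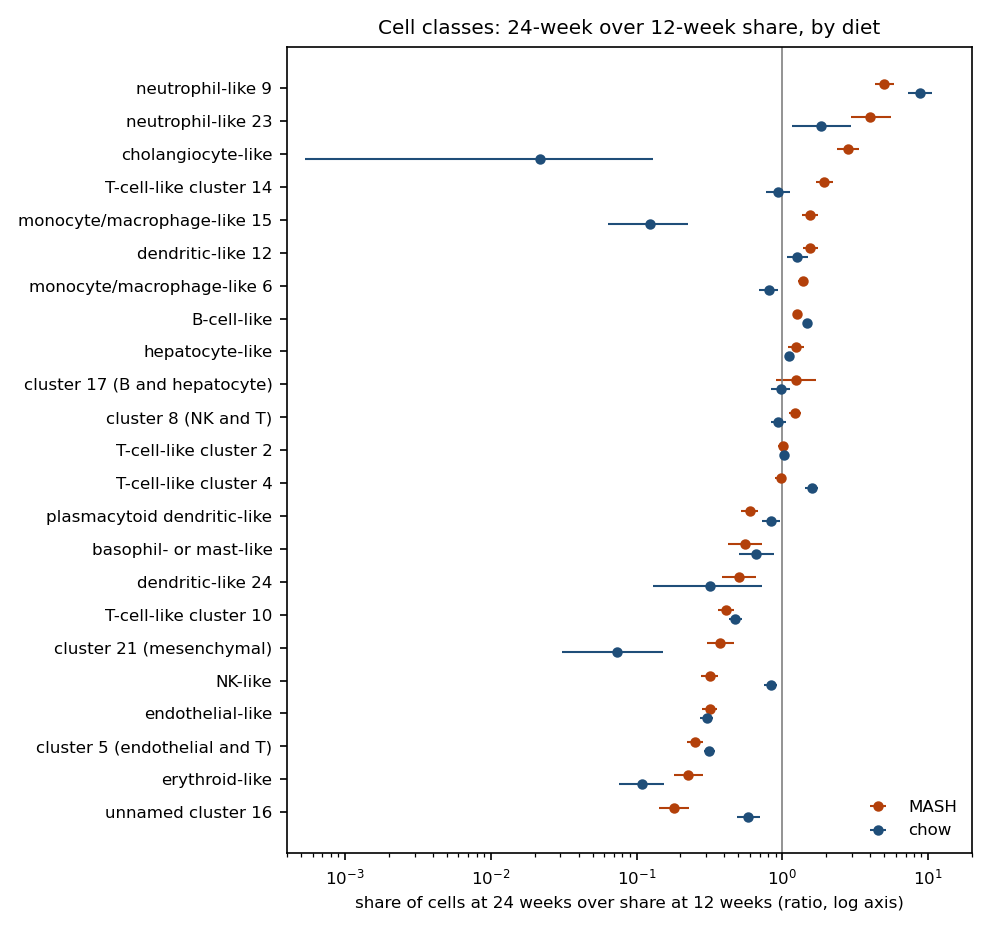
Share of doublet-free cells at 24 weeks divided by the share at 12 weeks (x axis, ratio on a log scale) for each cell class with at least 10 cells in both MASH libraries (y axis), in MASH (red) and chow (blue), with 95% counting intervals. Neutrophil-like cells were higher and endothelial-like cells lower in both diets, whereas cholangiocyte-like cells and monocyte- or macrophage-like cluster 15 went up in MASH (2.82 and 1.55) and down in chow.

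Neutrophil-like cluster 9 made up 1.43% of MASH cells at 12 weeks and 7.18% at 24 weeks, a ratio of 5.01 (4.34 to 5.82). In chow it went from 0.757% to 6.63%, a ratio of 8.76. Its share was 1.14% to 1.86% over the 12-week hashtags and 6.26% to 8.39% over the 24-week hashtags, so the weeks did not overlap in MASH. The 24-week chow hashtags split: 1.2% to 1.98% of the cells with hashtags 1 to 4 and 13% to 14.3% of those with hashtags 5 to 8 were in this cluster, so the chow reference for neutrophils rested on 4 of 8 hashtags. Neutrophil-like cluster 23, which held over 90% of the UMIs of the granule gene Ltf in both MASH libraries, went from 0.337% to 1.35% (4.0; chow 1.83). Cholangiocyte-like cells, the lining of bile ducts, went from 1.11% to 3.12% of MASH cells, a ratio of 2.82 (2.37 to 3.37). In chow they were 36 cells (0.222%) at 12 weeks and 1 cell at 24 weeks. With the cells of cluster 26, which also detected cholangiocyte markers, the ratios were 2.6 in MASH and 0.567 in chow. Their share was 0.612% to 1.69% over the 12-week hashtags and 1.42% to 3.46% over the 24-week hashtags, and these ranges overlapped. Monocyte- or macrophage-like cluster 15 went from 2.53% to 3.94% in MASH (1.55, 1.37 to 1.76) and from 0.505% to 0.0626% in chow, where it held 82 and 13 cells. With hashtags 1 to 4 alone at 24 weeks, its MASH ratio was 1.04. T-cell-like cluster 14, which held most of the Foxp3 UMIs, went from 2.23% to 4.34% (1.95, 1.71 to 2.22; chow 0.928), and its hashtag ranges did not overlap.

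Endothelial-like cells went from 6.87% to 2.18% of MASH cells, a ratio of 0.317 (0.281 to 0.356), and from 7.87% to 2.38% of chow cells, a ratio of 0.302. NK-like cells went from 4.95% to 1.57% in MASH (0.317, 0.275 to 0.364), against 4.32% to 3.59% in chow (0.833). The mixed NK and T cell cluster 8, with Ncr1 and Klrb1b among its leading genes, went the other way in MASH. It went from 5.1% to 6.24% (1.22, 1.12 to 1.34; chow 0.934), so the NK-like values do not cover all cells with NK markers. The MASH share of NK-like cells was 4.86% to 5.82% over the 12-week hashtags and 0.994% to 2.17% over the 24-week hashtags, well apart. The 24-week chow hashtags split here too, with 1.42% to 1.94% of the cells with hashtags 1 to 4 and 2.62% to 3.6% of those with hashtags 5 to 8 being endothelial-like, and 3.79% to 4.59% and 2.43% to 3.09% NK-like. The same sets lay apart for B-cell-like cells (44.4% to 48.2% and 30.1% to 32.8%) and T-cell-like cluster 2 (11.1% to 11.7% and 22.6% to 24.3%), so the chow references pooled unlike sets of hashtags. The gap in NK-like cells between the diets was larger than the counting intervals, but it leaves out cluster 8. With 1 library a group it also has no replicate check. Cluster 21, with mesenchymal and mesothelial markers, went from 1.94% to 0.729% (0.376, 0.303 to 0.463; chow 0.0736), with overlapping hashtag ranges. Erythroid-like cells went from 2.4% to 0.544% (0.227; chow 0.109). T-cell-like cluster 10 and the mixed endothelial and T cell cluster 5 also had MASH ratios below 1 (0.409 and 0.252) beside chow ratios of 0.475 and 0.316. Unnamed cluster 16 had a MASH ratio of 0.181 (chow 0.583) and basophil- or mast-like cells 0.554 (chow 0.663). Conventional dendritic-like cluster 12 had a MASH ratio of 1.55 (chow 1.27). Hepatocyte-like, B-cell-like and T-cell-like clusters 2 and 4 stayed between 0.97 and 1.27 in MASH, beside chow ratios of 1.12, 1.48, 1.03 and 1.59. Cells set free by digestion differ between types, so fewer cells of a type in the liver and fewer cells recovered from it cannot be told apart.

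**Figure D2:**
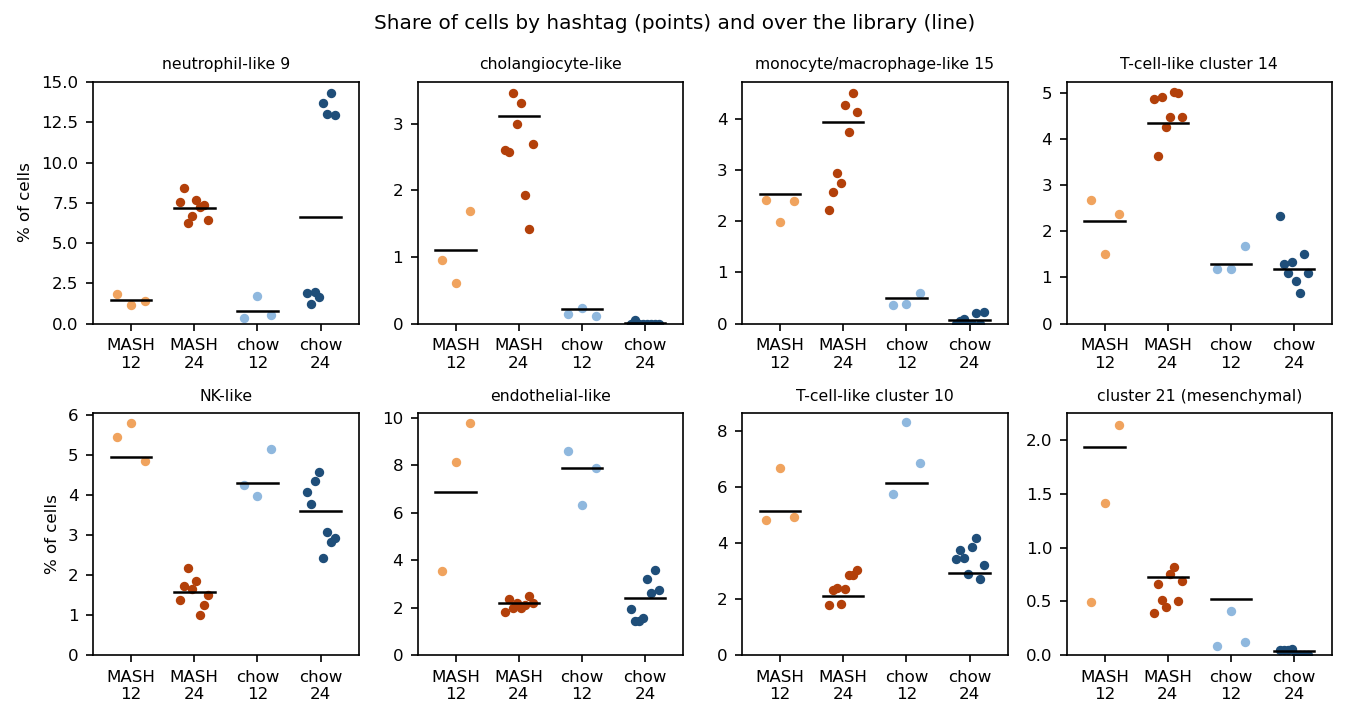
Share of doublet-free cells (y axis, %) in 8 classes for each hashtag (points) and each whole library (black lines), by diet and week (x axis). The 24-week MASH hashtags sit together for neutrophil-like, NK-like and endothelial-like cells, and the 24-week chow hashtags split into 2 sets of 4 for neutrophil-like, NK-like and endothelial-like cells.

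Over all cells of each library, genes of bile duct epithelium and of neutrophils were higher at 24 weeks in MASH, and genes of mesenchymal and endothelial cells were lower. Levels are counts per 1000000 gene UMIs (CPM) of the library, and a ratio is the 24-week over the 12-week CPM. Of 9290 genes with at least 50 UMIs over the 2 libraries and at least 10 CPM in 1 of them, 250 (2.69%) had a ratio of 2 or more and 327 (3.52%) a ratio of 0.5 or less, called higher and lower. The same thresholds gave 1.95% and 4.02% of 9023 genes in chow. For 77 genes (0.829%) the increase was also at least 2-fold beyond the chow ratio, and for 61 genes (0.657%) the decrease was. Chow went the same way past 2-fold for 76 of the higher and 182 of the lower genes. The CPM ranges of single hashtags did not overlap between the weeks for 40.9% of the genes, so a gap between hashtag ranges was common. No such share is given within classes, so the gaps named below for genes of a class have no reference. With each class held at its 12-week share, 102 genes were higher and 109 lower, so a large part of these counts moved with the class shares.

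Ductular reaction genes were 10 of 13 higher and 0 lower, with a median log2 ratio of 1.24 (chow 2 of 9 higher, median 0.82), beside a median of 0.00 over all genes tested. Claudin 4 (Cldn4), a tight junction protein, was at 2.52 and 10.8 CPM in MASH and 0.362 and 0.534 CPM in chow, and the matrix protease Mmp7 was at 15 and 63 CPM and 4.53 and 8.11 CPM. Among doublet-free cells of the MASH libraries, cholangiocyte-like cells held 83.4% and 98.5% of the Cldn4 UMIs and 87.5% and 97.6% of the Mmp7 UMIs. Surfactant protein D (Sftpd) at 6.83 and 24.9 CPM (chow 3.31 and 5.84 CPM) and Serinc2 at 4.1 and 14.4 CPM (chow 1.5 and 2.36 CPM) had most of their MASH UMIs in the same cells. With each class held at its 12-week share, the ratios of these 4 genes were 1.32 to 1.6 and that of Ltf, the granule gene below, was 0.82. Neutrophil granule genes were 8 of 12 higher (median 1.43; chow 6 of 12, 0.90), among them lactoferrin (Ltf) at 37.9 and 132 CPM in MASH and 24.7 and 35.3 CPM in chow. The cytokine gene Il1f9 (2.83 and 22.8 CPM; chow 0.799 and 25.1 CPM) and Slfn4 (6.73 and 37.9 CPM; chow 2.13 and 14.2 CPM) had most of their MASH UMIs in neutrophil-like cluster 9, and at 12-week class shares their ratios of 8.05 and 5.63 were 1.998 and 1.81, short of 2-fold. Foxp3, the regulatory T cell factor, was at 3.3 and 11.1 CPM (chow 2.3 and 3.01 CPM), granzyme C (Gzmc) at 9.72 and 43.6 CPM (chow 8.18 and 11.6 CPM) and the integrin Itgae at 3.41 and 11.7 CPM (chow 4.85 and 6.22 CPM). Sds, an enzyme of serine breakdown in hepatocytes, was at 1.88 and 17.7 CPM in MASH (9.44, 8.01 to 11.2) and 24.2 and 52.8 CPM in chow, so both MASH levels were below both chow levels. Gstm3, a glutathione transferase, went from 6.84 to 44.0 CPM in MASH (6.43) and from 8.14 to 5.12 CPM in chow, with 85.8% and 88.5% of its MASH UMIs in hepatocyte-like cells.

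Extracellular matrix genes were 16 of 22 lower (median log2 ratio −1.40; chow 10 of 13 lower, 1 higher, −1.31), sinusoidal endothelial genes 11 of 12 lower (−1.67; chow 11 of 12, −1.45), and endothelial Wnt and growth signals 8 of 9 lower (−1.43; chow 5 of 7, −1.26). These lists were therefore lower in both diets, as were the shares of their cells. Collagen III (Col3a1) was at 209 and 25.2 CPM in MASH and 32.4 and 5.12 CPM in chow, and the mast cell protease gene Prss34, found in basophil- or mast-like cells, was at 57.9 and 2.19 CPM and 29.1 and 1.2 CPM. Kupffer cell genes were 3 of 7 lower with a median of −0.67 (chow 1 of 3 lower, −0.88), and lipid- and scar-associated macrophage genes 2 of 17 higher with a median of 0.56 (chow 2 of 13 lower, −0.24). Interferon response genes were 2 of 14 higher with a median of 0.71 (chow 3 of 14, 0.44). In MASH no member of the MHC class II, cell cycle or senescence lists passed 2-fold in either direction, and in chow 2 of 10 senescence genes were lower. The matrix genes Mfap5, Dpt, Clec3b and Fndc1 were lower beyond chow in MASH, with chow ratios of 0.243, 0.224, 0.146 and 0.356, at 21.4 and 0.463 CPM (chow 11.1 and 2.7 CPM), 11.6 and 0.68 CPM (chow 8.07 and 1.81 CPM), 58.1 and 3.5 CPM (chow 41 and 6.0 CPM) and 33.1 and 3.84 CPM (chow 7.4 and 2.64 CPM). Cluster 21 held 90.9% to 99.5% of their UMIs at 12 weeks.

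Some of the largest ratios came from few cells. Dmbt1, a scavenger receptor protein of mucosal epithelium (chromosome 7, 131032053 to 131121630, mm10), was at 58.2 and 0.00945 CPM in MASH, from 4805 UMIs to 1, and at 154 and 221 CPM in chow. The MASH ratio was 0.000162 (4.1e-06 to 0.000905). Cluster 26 held 86.5% of its UMIs at 12 weeks in MASH and 98.7% at 24 weeks in chow. That cluster, which detected 5 of 6 cholangiocyte markers, had 14 and 0 cells in the MASH libraries and 26 and 44 cells in the chow libraries. Chil4 (19.8 and 0.0472 CPM; chow 2.47 and 0.0762 CPM) had 98.9% of its 12-week MASH UMIs in 5 cells of the same cluster. The lymphatic gene Mmrn1 (13.7 and 0.312 CPM; chow 15.6 and 4.53 CPM) came from cluster 25, with 47 and 2 MASH cells, and its ratio of 0.0227 was 0.615 at 12-week class shares. One cell held 89.6% of the Ccl19 UMIs of cluster 21 at 12 weeks (10.3 and 0.34 CPM over all cells; chow 0.989 and 0.229 CPM). Ighg2c (16.9 and 1.56 CPM; chow 36.8 and 46.4 CPM) had 64.9% of its 12-week MASH UMIs in 2 cells.

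Within monocyte- or macrophage-like cluster 15 (384 and 702 MASH cells), resident Kupffer cell genes were lower at 24 weeks, while lipid- and scar-associated genes were at similar levels. Of 8380 genes tested, 139 were higher (1.66%) and 252 lower (3.01%), with a median log2 ratio of −0.05. Of 11 Kupffer genes tested, 8 were lower and 0 higher, with a median of −2.35. Clec4f was at 290.2 and 46.8 CPM, a ratio of 0.161 (0.142 to 0.183). It ranged over 126 to 619 CPM over the 12-week hashtags and 0 to 176 CPM over the 24-week hashtags, which overlapped. Cd5l, a secreted scavenger protein, was at 1026 and 289 CPM, Vsig4 at 161 and 31.5 CPM, and the iron exporter Slc40a1 at 291 and 49.6 CPM. The scavenger receptors Marco and Cd163 were at 25.6 and 0.419 CPM and 17.9 and 0.699 CPM. The ficolin gene Fcna, not on the list, was at 219 and 18.5 CPM. Fewer cells carried these genes: a Clec4f UMI was found in 69 of 384 cells (18%) at 12 weeks and in 21 of 702 cells (2.99%) at 24 weeks, a Cd5l UMI in 47.7% and 19.8%, and a Timd4 UMI in 14 and 1 cells. T-cell-like cluster 2, which should lack Clec4f, had it in 0% and 0.077% of its cells, which held a median of 3284 and 3053 UMIs against 5109.5 and 8160 in cluster 15. The Kupffer list also holds Cdh5, an endothelial gene (54.3 and 7.41 CPM), low enough here to be open to RNA from another class.

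All 18 lipid- and scar-associated genes stayed within 2-fold (median log2 ratio 0.24). Trem2, a lipid receptor, was at 870.2 and 1020.0 CPM and in 59.9% and 76.2% of cells, Gpnmb at 1099 and 837 CPM, and galectin 3 (Lgals3) at 1349 and 2274 CPM. None of 10 MHC class II genes passed 2-fold (median 0.73), with H2-Ab1 at 4157 and 7085 CPM. Chow offered no reference here, since the cluster had 13 cells in the 24-week chow library. The monocyte chemokine gene Ccl8 (1.4 and 20.8 CPM) and the lysozyme gene Lyz1 (27.3 and 271 CPM) were higher, and C6, a complement component, was lower (38.2 and 4.89 CPM). Lyz1 ranged over 28.8 to 63.4 CPM over the 12-week hashtags and 7.41 to 1613 CPM over the 24-week hashtags, which overlapped, and its ratio of 9.94 was 1.9 with predicted doublets kept. The thioredoxin reductase Txnrd1, which keeps thioredoxin reduced, was at 113 and 47.1 CPM with hashtag ranges that did not overlap. Its ratio of 0.415 was 0.604 with predicted doublets kept and 0.504 with only hashtags 1 to 4 at 24 weeks, so the 2-fold call was lost under both.

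**Figure D3:**
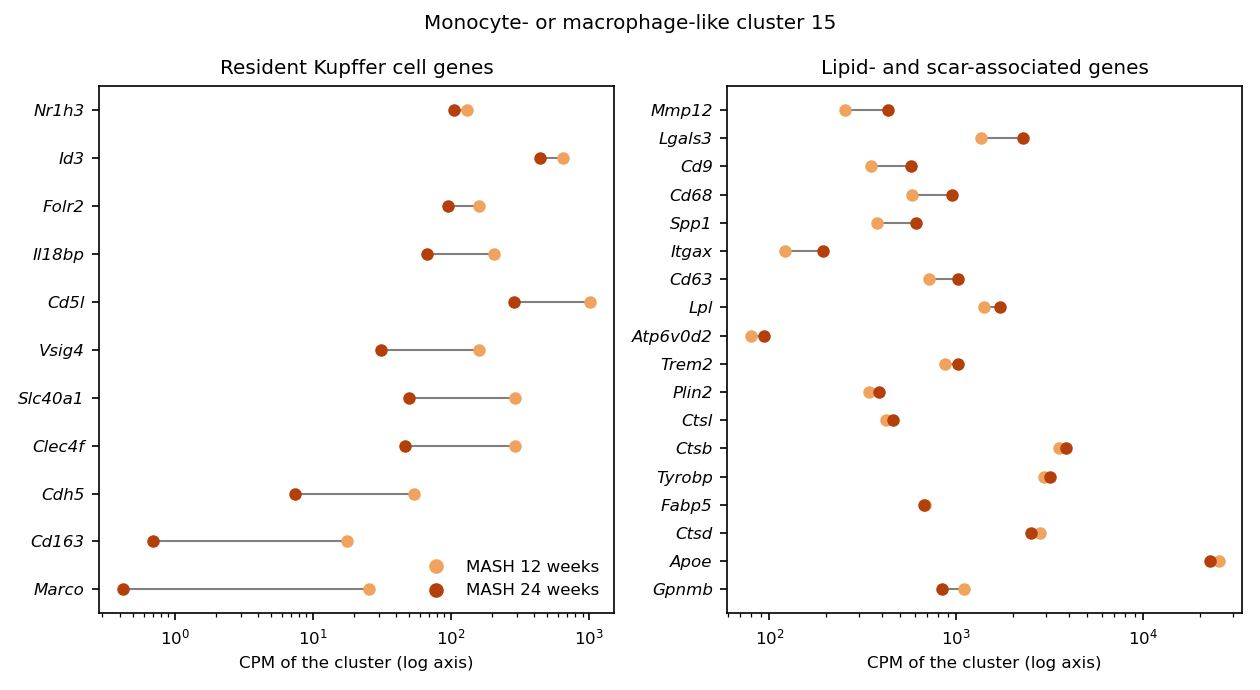
CPM (x axis, log scale) of each tested gene of the Kupffer cell list (left) and the lipid- and scar-associated list (right) in monocyte- or macrophage-like cluster 15 at 12 weeks (light) and 24 weeks (dark) of MASH. All 11 Kupffer genes lie lower at 24 weeks, 8 of them past 2-fold, and the 18 lipid- and scar-associated genes lie within 2-fold.

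Monocyte- or macrophage-like cluster 6 (1008 and 1638 MASH cells) had some MHC class II and interferon genes higher at 24 weeks in MASH, and 1 and 0 members of these lists were higher in chow. Higher were 164 of 7984 genes (2.05%) and lower 187 (2.34%), against 1.99% and 0.763% in chow. Of 10 MHC class II genes, 5 were higher (median log2 ratio 0.99; chow 1 of 8, −0.28). H2-Ab1, a chain that presents peptides to helper T cells, was at 1227 and 2520.0 CPM in MASH and 1015 and 898 CPM in chow, and its MASH hashtag ranges did not overlap. The ratios were just past 2-fold: with predicted doublets kept, those of H2-Ab1, Irf7 and Ifit3 were 1.6, 1.73 and 1.6. H2-DMb2, H2-Oa and H2-Ob, also higher, are low enough here to be open to RNA from another class. Of 14 interferon genes 4 were higher (median 0.72; chow 0 of 14, 0.12), among them the regulator Irf7 (87.3 and 179.5 CPM; chow 134 and 129 CPM) and Ifit3 (23.2 and 46.9 CPM; chow 41.2 and 32.2 CPM). Tnf, a main inflammatory cytokine, was higher in both diets (58.6 and 182 CPM; chow 40.6 and 118 CPM). Dcstamp, a fusion protein of macrophages and osteoclasts, was at 1.67 and 13.7 CPM (chow 3.33 and 0.564 CPM) and the chemokine receptor Cxcr3 at 6.96 and 25.7 CPM (chow 13.3 and 11.8 CPM).

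Several genes with the lowest ratios are known from peritoneal or tissue macrophages. The acute-phase gene Saa3 was at 4604 and 113 CPM in MASH (0.0245, 0.0233 to 0.0258) and 0.665 and 27.1 CPM in chow. It spanned 356 to 13261 CPM over the 12-week hashtags and 17.1 to 325 CPM over the 24-week hashtags, and 12-week hashtag 6 was far above hashtags 4 and 5, at 356 and 372 CPM. Lubricin (Prg4) was at 378 and 21 CPM and found in 91 of 1008 cells (9.03%) and 10 of 1638 cells (0.611%), and 12-week hashtag 6 had it in 24.7% of its cells against 1.29% and 2.44% for hashtags 4 and 5. The lipoxygenase Alox15 was at 179 and 9.44 CPM, with overlapping hashtag ranges, and platelet factor 4 (Pf4) at 98.3 and 3.76 CPM. The Pf4 ratio of 0.0383 was 0.259 with predicted doublets kept and 0.568 at the coarser clustering, where it no longer passed 2-fold. Saa3, Prg4, Alox15 and Pf4 were at or below 2.66 CPM in both chow libraries apart from Saa3 at 24 weeks. Itgam (CD11b) was at 440.5 and 175 CPM in MASH, a ratio of 0.397, and stood at 223 and 220.0 CPM in chow. Serpinb2, an inhibitor of the uPAR ligand urokinase, was at 120.4 and 30.1 CPM (chow 57.2 and 40.6 CPM). With predicted doublets kept, the MASH ratios of Itgam and Serpinb2 were 0.829 and 0.621, so these depended on how doublets were treated. Of 13 cell cycle genes 4 were lower, with Top2a at 45.7 and 19 CPM, whereas 3 of 3 were higher in chow (5.99 and 15.8 CPM for Top2a). The MASH ratio of Top2a, 0.415, did not pass 2-fold with hashtags 5 to 8 at 24 weeks (0.505), at the coarser clustering (0.598) or among single-hashtag cells (0.577).

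Neutrophil-like cluster 9 had 217 cells at 12 weeks and 1281 at 24 weeks of MASH, and its activation genes were at similar levels: 0 of 10 passed 2-fold (median log2 ratio −0.04; chow 1 higher and 1 lower of 9). Of 5319 genes, 341 were higher (6.41%) and 102 lower (1.92%), against 7.85% and 8.19% in chow. Il1b, the main cytokine of these cells, was at 5089.9 and 4850.1 CPM (chow 4393 and 4317 CPM) and chemokine Ccl3 at 1028 and 1615 CPM (chow 316 and 579 CPM). Ptgs2, the inducible prostaglandin enzyme, was at 607 and 374 CPM in MASH and 132 and 336 CPM in chow, so the diets went in opposite directions, with a MASH ratio of 0.616 and a chow ratio of 2.54. The chemokine gene Ccl2 was at 2.75 and 71.9 CPM (chow 0 and 11.9 CPM), from 1 UMI at 12 weeks, a ratio of 26.2 with an interval of 4.64 to 1038. At the coarser clustering it was 1.72. Granule genes were 3 of 9 higher (median 0.19; chow 1 higher and 2 lower of 8). The 3 higher ones, Ngp, Camp and Chil3, were among the 5 of 9 low enough here to be open to RNA of another class. Thrombospondin 1 (Thbs1) was lower in MASH (239 and 76.7 CPM) and higher in chow (176 and 608 CPM).

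Cholangiocyte-like cells (168 and 557 MASH cells) grew in share, and the 14 ductular reaction genes had a median log2 ratio of 0.10 within them. Of 9814 genes, 175 were higher (1.78%) and 86 lower (0.876%). Keratin 19 (Krt19) was at 445 and 339.5 CPM and Cldn4 at 66.7 and 133 CPM, in 31.5% and 46.3% of cells. Immediate early and heat shock genes were 3 of 14 lower and senescence and p53 genes 1 of 13: the immediate early gene Atf3 was at 650.1 and 138 CPM and the cell cycle inhibitor Cdkn1a (p21) at 115 and 23.8 CPM, both with hashtag ranges that did not overlap. Cell cycle genes were 5 of 11 higher (median 0.70), with Top2a at 9.46 and 24.4 CPM, a ratio of 2.58 that was 1.03 with predicted doublets kept. A Mki67 UMI was found in 5 of 168 cells (2.98%) and 27 of 557 cells (4.85%), near the 5.1% and 4.0% in T-cell-like cluster 2 at shallower median depths (3284 and 3053 UMIs against 9333 and 10049), so no increase in cycling cells is read from it. The hepcidin gene Hamp, a liver iron hormone (9.94 and 89.2 CPM), and Serpina6, a steroid carrier (6.15 and 60.2 CPM), were higher.

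Cluster 21 (294 and 130 MASH cells) carried mesothelial and fibroblast markers, and collagen and fibroblast genes were lower at 24 weeks. The marker of mesothelium Upk3b was in 71.1% and 78.5% of its cells, and the stellate cell enzyme Lrat in 2 and 3 cells. Of 9479 genes, 248 were higher (2.62%) and 545 lower (5.75%). Of 27 matrix and contractile genes 11 were lower and 0 higher (median log2 ratio −0.67). Collagen I (Col1a1) was at 2164 and 724 CPM (0.335, 0.317 to 0.353) and Col3a1 at 4153 and 1166 CPM. With only hashtags 1 to 4 at 24 weeks the Col1a1 ratio was 0.561. The smooth muscle gene Tagln was at 107 and 18.4 CPM and fibrillin (Fbn1) at 238 and 67.2 CPM, with ratios of 0.671 and 0.502 among single-hashtag cells. Pi16, a marker of adventitial fibroblasts, was at 225 and 0.46 CPM and in 56 of 294 cells (19%) and 1 of 130 cells (0.769%). The protease Mmp3 was at 65.3 and 0 CPM, and Cilp and Pcolce2 were at 74.3 and 0.921 CPM and 61 and 0.921 CPM. No 24-week hashtag held 20 of these cells, so the 24-week values have no spread within the library, and a change in which cells make up the cluster cannot be told apart from a change within them. Chow had 85 and 8 cells and gives no reference.

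Endothelial-like cells (1040 and 388 MASH cells, 1279 and 495 chow cells) kept their sinusoidal genes within 2-fold while the capillary list genes Cd34 and Esm1 and the arrest gene Cdkn2a were higher. The leading genes of this class were Rspo3, Vwf and Wnt9b, whereas Stab2 and Clec4g led the mixed endothelial and T cell cluster 5. Gene values of cluster 5 are not described here, so these results do not cover all cells with endothelial markers. Of 9060 genes, 142 were higher (1.57%) and 123 lower (1.36%), against 1.68% and 1.25% in chow. Cdkn2a, whose products p16 and Arf halt the cell cycle, was at 9.62 and 71.2 CPM in MASH, a ratio of 7.41 (5.08 to 11), and at 14.1 and 11.2 CPM in chow. It ranged over 5.5 to 12.7 CPM over the 12-week hashtags and 25.7 to 101 CPM over the 24-week hashtags, so the weeks did not overlap. A Cdkn2a UMI was found in 28 of 1040 cells (2.69%) at 12 weeks and 77 of 388 cells (19.8%) at 24 weeks in MASH, and in 2.81% and 2.63% of the chow cells. In T-cell-like cluster 2 the shares were 0.729% and 0.693%, with 3284 and 3053 UMIs in the median cell of the 2 weeks, where endothelial-like cells had 3030 and 3748. Cdkn1a was lower instead (185 and 82.4 CPM; chow 149 and 88.5 CPM), just past 2-fold at 0.446 and at 0.504 with only hashtags 1 to 4 at 24 weeks. Of 13 senescence and p53 genes 2 were higher and 1 lower (median log2 ratio 0.16; chow 0 of 11, −0.33).

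Cd34, a capillary and tip cell antigen, was at 56.9 and 175 CPM in MASH and 23.9 and 33.5 CPM in chow, and in 13%, 36.9%, 5.0% and 6.26% of cells in the same order. The tip cell gene Esm1 (64.1 and 152 CPM; chow 92.6 and 90.0 CPM), the vessel growth peptide Apln (2.4 and 23.4 CPM; chow 14.7 and 5.95 CPM) and the basement membrane gene Nid2 (4.27 and 25.6 CPM; chow 7.85 and 7.44 CPM) were also higher in MASH. Over the capillary list 2 of 11 genes were higher in MASH and 3 of 11 in chow (medians 0.24 and 0.49). None of 12 sinusoidal genes passed 2-fold (median −0.41; chow 1 lower, −0.26), with Lyve1 at 728 and 442 CPM (chow 710.4 and 322 CPM) and Clec4g at 2024 and 1343 CPM (chow 2417 and 1509 CPM). None of 10 endothelial Wnt and growth signals did (median −0.32; chow 0.05). Wnt2, which sustains pericentral hepatocytes, was at 433 and 263 CPM in MASH with hashtag ranges that did not overlap, and at 332 and 383 CPM in chow. Over all cells 11 of the 12 sinusoidal genes were lower, beside shares of 0.317 times the 12-week share for endothelial-like cells and 0.252 times for cluster 5. In sums over all cells, fewer cells of a type and less RNA per cell cannot be told apart.

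**Figure D4:**
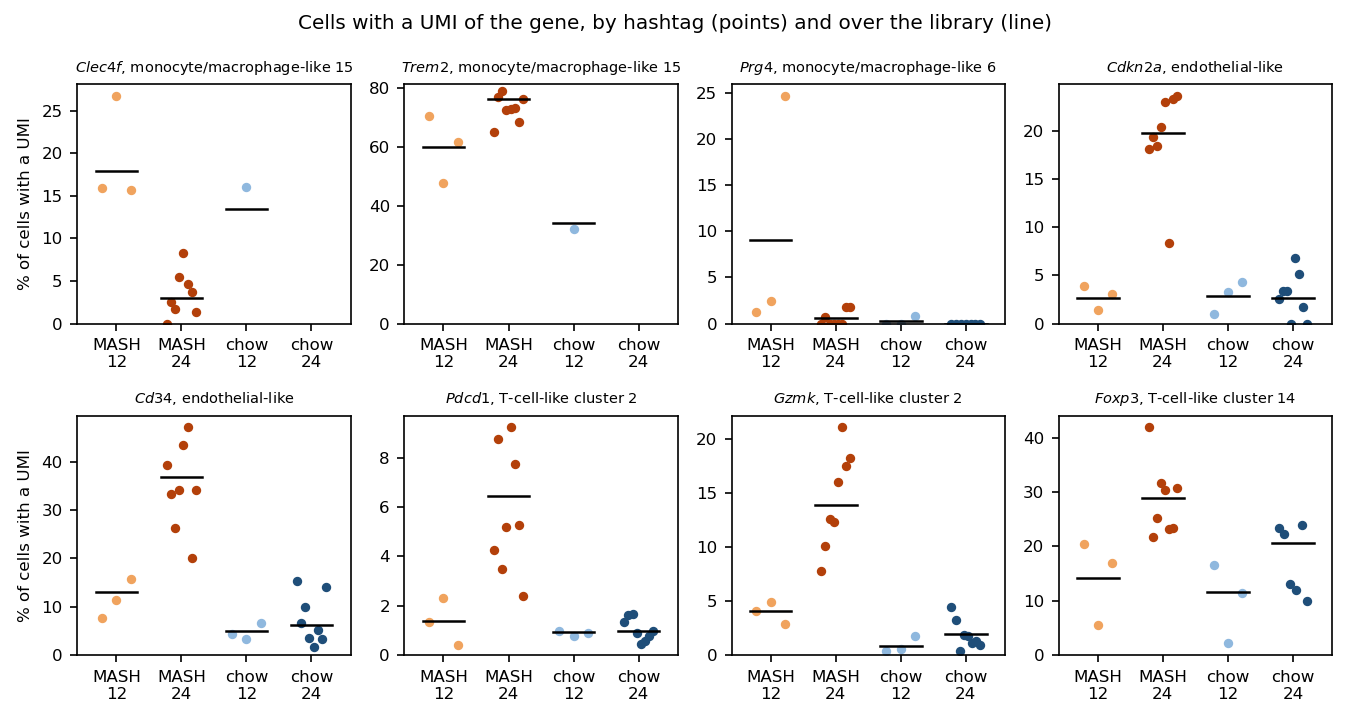
Share of cells with at least 1 UMI of a gene (y axis, %) within a class, for each hashtag with at least 20 cells of the class (points) and each library with at least 50 (black lines), by diet and week (x axis). Cdkn2a and Cd34 in endothelial-like cells and Gzmk in T-cell-like cluster 2 sit higher at 24 weeks of MASH than in the other libraries, and the 12-week Prg4 share rests on 1 hashtag.

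Hepatocyte-like cells, the few left after enrichment (424 and 621 MASH cells), had lower secreted and acute-phase genes at 24 weeks in MASH. Of 4803 genes, 204 were higher (4.25%) and 235 lower (4.89%), against 1.90% and 6.44% in chow. Acute-phase genes were 5 of 11 lower (median log2 ratio −0.90; chow 1 of 9, −0.29) and metabolic and secreted genes 6 of 16 lower and 1 higher (−0.87; chow 3 lower and 1 higher of 16, −0.20). At 12 weeks of MASH, 1 cell held 42.3% of the albumin gene (Alb) UMIs of the class, against 4.48% at 24 weeks. In chow the top cell held 2.19% and 0.519%. The 12-week level of secreted genes can thus lean on single cells, and their part in these list values was not tested. Mup7, a major urinary protein, was at 698 and 3.11 CPM in MASH and 942 and 524 CPM in chow. Mup14 (339 and 11.2 CPM; chow 181 and 210.0 CPM) and Mup20 (2044 and 644 CPM; chow 848 and 736 CPM) went the same way. Mup genes are near-identical copies, and reads could be split between them. Haptoglobin (Hp) was at 856 and 339 CPM (chow 157 and 154 CPM), ranging over 153 to 4508 CPM over the 12-week hashtags and 180.2 to 1098 CPM over the 24-week hashtags, a wide 12-week spread, and its ratio of 0.396 was 0.567 with only hashtags 5 to 8 at 24 weeks, short of 2-fold. The fatty acid elongase Elovl3 was at 147 and 7.47 CPM (chow 333 and 98.1 CPM). Argininosuccinate synthase (Ass1), a urea cycle enzyme, was higher at 2273 and 6207 CPM (chow 7599.6 and 8518 CPM), as was uridine phosphorylase 2 (Upp2) at 53.1 and 464 CPM (chow 113 and 361 CPM). Rgs16 was at 6.98 and 67.3 CPM and at 2.36 and 2.08 CPM in chow, with MASH hashtag ranges that did not overlap. The metal-binding gene Mt1 was higher in both diets (36.3 and 398 CPM; chow 65.6 and 895 CPM). H19, a fetal liver RNA, was at 1.4 and 214 CPM (chow 0 and 0 CPM), in 1 of 424 cells (0.236%) and 17 of 621 cells (2.74%), and 1 cell held 57.7% of its 24-week UMIs.

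T-cell-like cluster 2 had the checkpoint gene Pdcd1 and 2 costimulatory receptor genes higher at 24 weeks in MASH. In T-cell-like cluster 2 (1097 and 1299 MASH cells), 192 of 7906 genes were higher (2.43%) and 98 lower (1.24%), against 1.35% and 0.863% in chow. Of 12 activation and exhaustion genes 4 were higher and 1 lower (median log2 ratio 0.49; chow 2 of 9 lower, −0.33). Pdcd1 (PD-1) was at 3.98 and 26.5 CPM in MASH (6.66, 3.93 to 12) and 3.28 and 3.39 CPM in chow, and was found in 1.37% and 6.47% of MASH cells and 0.93% and 0.961% of chow cells. B-cell-like cells had it in 0.227% and 0.247% and their median cell held 2450 and 2493 UMIs where cluster 2 had 3284 and 3053. The costimulatory receptors Tnfrsf4 (OX40) and Tnfrsf9 (4-1BB) were at 8.7 and 34.7 CPM and 9.94 and 25.8 CPM (chow 5.71 and 6.46 CPM and 7.7 and 10.5 CPM). Granzyme K (Gzmk), a mark of memory and exhausted CD8 T cells, was at 15.7 and 84.5 CPM (chow 3.14 and 8.05 CPM) and in 4.1% and 13.9% of cells. Cd8a and Cd8b1 were not among the leading genes of cluster 2, whereas they were among those of T-cell-like cluster 4. Granzyme B (Gzmb) was lower in cluster 2 at 185 and 74 CPM (chow 149 and 179.8 CPM). MASH hashtag ranges did not overlap for Pdcd1, Tnfrsf4, Tnfrsf9, Gzmk or Gzmb, but how common such gaps were among all genes of the cluster is not given. With predicted doublets kept, the ratios of Tnfrsf9 (2.6) and Gzmb (0.40) were 1.56 and 0.569, so these 2 calls were lost. No naive T cell gene of 8 passed 2-fold.

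In T-cell-like cluster 14 (338 and 774 MASH cells), 228 of 8120 genes were higher (2.81%) and 144 lower (1.77%), against 1.85% and 3.12% in chow. A Foxp3 UMI was found in 14.2% and 28.9% of MASH cells and 11.5% and 20.6% of chow cells, so the share was higher at 24 weeks in both diets. Cluster 2 had it in 0.182% and 1.31% of MASH cells, its median cell holding 3284 and 3053 UMIs where cluster 14 had 3724 and 3345. Cd163l1, a gene of gamma delta T cells, was found in 12.1% and 11.2% of MASH cells. Tnfrsf4 was at 87.8 and 253 CPM (chow 28.1 and 56.8 CPM) and Pdcd1 at 38.3 and 86.4 CPM (chow 5.82 and 24.3 CPM), a ratio of 2.25 that was 1.84 with only hashtags 1 to 4 at 24 weeks. Dntt, the enzyme that adds bases during antigen receptor rearrangement, was at 50.7 and 0 CPM in MASH, from 82 UMIs to none, and at 28.1 and 18.9 CPM in chow. Its 12-week MASH level was uneven, 2.25 to 107 CPM over the hashtags. Dntt is also among the leading genes of the plasmacytoid dendritic-like cells. The early lymphoid factors Flt3 (45.1 and 4.99 CPM; chow 75.7 and 21.6 CPM) and Sox4 (138 and 15.9 CPM; chow 115 and 55.9 CPM) were lower in both diets. In the mixed NK and T cell cluster 8, Gzmc was at 119.7 and 644 CPM in MASH and 178 and 359 CPM in chow, in 11.3% and 21.4% of MASH cells. B-cell-like cells (3526 and 5260) had 72 of 7631 genes higher (0.944%) and 88 lower (1.15%), against 1.3% and 1.5% in chow. Their cell cycle genes were 5 of 8 lower (median −1.26; chow 1 of 7, −0.43), with Mki67 at 28.7 and 9.45 CPM (chow 21.3 and 9.1 CPM). In conventional dendritic-like cluster 12 the interferon gene Ifit3 was at 5.95 and 37.6 CPM (chow 4.7 and 9.89 CPM).

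Plaur over all cells was at 91.6 and 77.9 CPM in MASH, a ratio of 0.85 (0.824 to 0.878), and at 97.6 and 78.7 CPM in chow, a ratio of 0.806. The change thus had the same direction and about the same size in both diets. The neutrophil-like clusters had the highest levels of the classes with at least 50 cells in each MASH library, cluster 9 at 613 and 379 CPM (chow 676 and 521 CPM) and cluster 23 at 519.8 and 420.3 CPM. Unnamed cluster 16 was at 434 and 157 CPM (0.361) and at 657 and 144 CPM in chow (0.219). Monocyte- or macrophage-like cluster 6 was at 212 and 173 CPM (chow 409 and 302 CPM), plasmacytoid dendritic-like cells at 201 and 189.6 CPM (chow 247 and 257 CPM) and B-cell-like cells at 197 and 77.1 CPM (chow 253 and 91.6 CPM). In B-cell-like cells and dendritic-like cluster 12 (57.4 and 23.1 CPM; chow 67.6 and 29 CPM) the ratios were 0.391 and 0.402 in MASH and 0.363 and 0.43 in chow, and the MASH ratio in cluster 12 was 0.504 with predicted doublets kept. Monocyte- or macrophage-like cluster 15 was at 56.7 and 58.9 CPM, a ratio of 1.04 (0.864 to 1.25). Endothelial-like cells were at 25.9 and 38.4 CPM (ratio 1.48, 1.07 to 2.04) and at 28.5 and 23.1 CPM in chow. Cells with at least 1000 UMIs were also thinned to 1000 UMIs each. Of these, 8.55% and 7.22% in MASH and 9.32% and 6.97% in chow had a Plaur UMI. This left out 1616 and 1020 MASH cells and 2913 and 2758 chow cells. Among thinned endothelial-like cells of MASH the shares were 2.75% (1.83% to 3.94%) and 4.45% (2.61% to 7.03%), with overlapping intervals. The source of the transcript differed between the weeks in both diets. Among doublet-free cells, B-cell-like cells held 32.6% and 16.8% of Plaur UMIs in MASH (chow 46.5% and 33.5%). Their share of MASH cells went from 23.3% to 29.5%. Cluster 9 held 3.78% and 14.9% (chow 2.27% and 25.8%), so B-cell-like cells and cluster 9 went the same way in chow. Cluster 6 held 25.9% and 33.1% in MASH (chow 15.2% and 12.2%). Cluster 15 held 2.75% and 6.2% (chow 0.271% and 0.0456%), so clusters 6 and 15 went down in chow.

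Heat shock genes differed between the diets in most classes. The inducible Hsp70 genes Hspa1a and Hspa1b were higher at 24 weeks in both diets, while some co-chaperones of Hsp90 and Hsp70 were lower in most MASH classes and near level in chow, and others were not. This group of 17 genes was chosen after its values were seen. Hspa1a was at 108 and 897 CPM over all MASH cells and 57.1 and 1227 CPM over all chow cells, and Hspa1b at 160.4 and 974 CPM and 66.1 and 1766 CPM. The ratio was at least 2 in 21 of 23 classes for Hspa1a and 19 of 23 for Hspa1b in MASH, and in 17 of 17 for both in chow. Chordc1, an Hsp90 co-chaperone, was at 161 and 49.6 CPM in MASH (0.308) and 117 and 113 CPM in chow. Its ratio was at most 0.5 in 20 of 22 MASH classes (median 0.35) and in 0 of 14 chow classes (median 1.06). Stip1, which links Hsp70 to Hsp90, was at 143 and 56.5 CPM in MASH and 115 and 117 CPM in chow, with ratios at most 0.5 in 18 of 22 and 0 of 16 classes. The counts were 16 of 18 and 1 of 14 for Hspa4l, 15 of 18 and 0 of 13 for Ahsa2, and 16 of 23 and 0 of 17 for the Hsp70 partner Dnaja1. The prolyl hydroxylase P4ha1, a collagen-modifying enzyme, was at most 0.5 in 16 of 17 MASH and 0 of 12 chow classes. Other members did otherwise. The Hsp70 co-chaperone Dnajb1 was above 1 in 21 of 23 MASH classes (median 1.82) and at least 2 in 11 of 17 chow classes (median 2.17). Hsph1, an Hsp70 partner, had medians of 0.668 in MASH and 1.95 in chow, where it was at least 2 in 8 of 17 classes. Ahsa1, an activator of Hsp90, was at most 0.5 in 1 of 22 MASH classes (median 0.666), and Hspa8, the constitutive Hsp70, in 0 of 23 (median 0.768). Over all cells the Chordc1 hashtag ranges were 118 to 225 CPM at 12 weeks and 46.2 to 53.8 CPM at 24 weeks of MASH. The livers stood overnight on ice before warm digestion, and the part of handling in these values was not tested.

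Heat shock factors are known to bind arrays of the half-sites GAA and TTC. The stretches 120 to 61 bases before the start of 2 genes that were higher and 2 that were lower are shown to set them side by side, 5′ to 3′ on the gene's strand, from RefSeq (GRCm38.p6), with a match to GAANNTTC or TTCNNGAA in capitals.
Hspa1a (chr17:34972217-34972276, minus strand): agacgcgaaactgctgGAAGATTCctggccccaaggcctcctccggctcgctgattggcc
Hspa1b (chr17:34959299-34959358, minus strand): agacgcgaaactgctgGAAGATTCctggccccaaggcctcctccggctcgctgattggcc
Chordc1 (chr9:18292147-18292206, plus strand): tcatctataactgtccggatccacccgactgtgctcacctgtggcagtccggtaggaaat
Stip1 (chr19:7040087-7040146, minus strand): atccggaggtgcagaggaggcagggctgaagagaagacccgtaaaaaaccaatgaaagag
The Hspa1a and Hspa1b stretches are identical, and the transcripts of these genes are near-identical too, so reads could be split between them. Both motifs read the same on both strands. Hspa8, Hsp90aa1, Hsp90ab1, Hspe1 and Ahsa1 of the chaperone group were not searched, so the count below covers only part of it. Over the 250 bases before a listed start, 5 of 12 genes searched held a match in at least 1 window, Hspa1a, Hspa1b, Hsph1, Hspd1 and Dnaja1, and Chordc1, Stip1, Hspa4l, P4ha1, Ahsa2, Cacybp and Dnajb1 held none. Of all 32851 such windows, 12.84% held one. That share counts single windows, whereas a gene with several windows needed a match in only 1 of them, so the shares are unlike measures. Genes with a match went both ways: Hspa1a and Hspa1b were higher in MASH, and Hspd1 and Dnaja1 had median ratios of 0.467 and 0.413 over the classes.

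**Figure D5:**
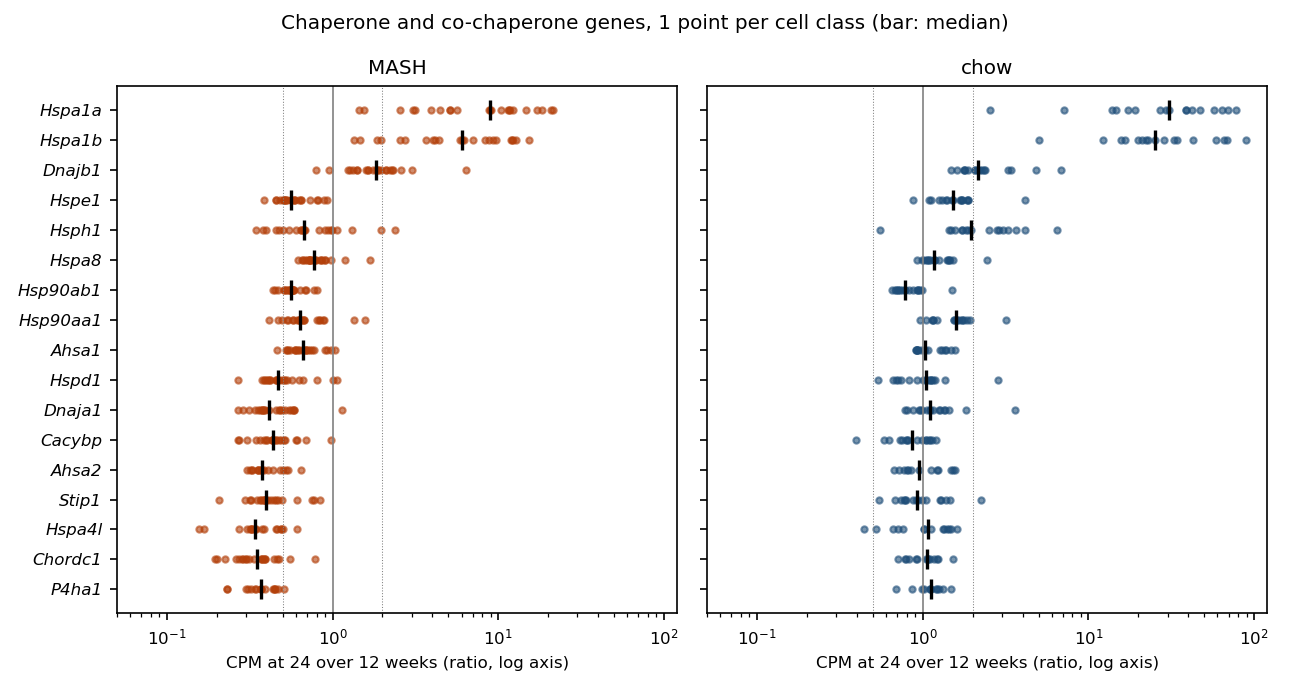
Ratio of the 24-week to the 12-week CPM (x axis, log scale) of chaperone and co-chaperone genes (y axis) in each cell class with at least 50 UMIs of the gene over the 2 libraries (points) and their median (bar), in MASH (left) and chow (right). Dotted lines mark 2-fold. Chordc1, Stip1, Hspa4l and P4ha1 have medians of 0.34 to 0.40 in MASH and near 1 in chow, and Hspa1a and Hspa1b lie above 1 in both.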

How the data were processed

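The 4 10x 5′ single-cell libraries were used, 1 for each diet and week. The authors deposited UMI counts per gene and barcode, made with Cell Ranger 4 (12-week MASH) or 5.0.1 (the others), per the file headers, against mm10, per the submitters' processing notes. The 12-week MASH matrix held columns of all depths and its cells were taken by UMI count. Cells needed at least 500 gene UMIs and 300 genes and at most 15% mitochondrial UMIs. Doublets were predicted per library (Scrublet in scanpy 1.11.5), hashtags were called by a mixture model, and cells were clustered together (Leiden, resolution 1.0, 30 components). The 27 clusters formed 25 classes, named from marker sets; genes of the lists took no part in clustering.

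UMIs were summed per library and class, and ratios of CPM were given with exact 95% binomial intervals, which cover counting error only. A gene was tested with at least 50 UMIs over both MASH libraries and 10 CPM in 1 of them; 2-fold was the threshold. Genes with under 10% of another class's CPM were called open to other RNA. A gene at 0 was set to 3 counts in ratios. The steps were tested on simulated data. Alternatives were a stricter cell filter, doublets kept or removed, hashtags 1 to 4 or 5 to 8 at 24 weeks, coarser clustering (resolution 0.5), TMM scaling (edgeR 4.0.16), lower minimums and 12-week class shares.

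The members and lists were chosen with earlier results of these data known. The rule for named genes took, over all cells, the 10 highest and 10 lowest ratios beyond chow and 5 each way shared by the diets; within classes up to 5 each way; up to 4 members per list; and Plaur. Not all of these are described, and other genes named, the chaperones, shares of cells with a UMI, the origin of UMIs and the promoter search were chosen after values were seen. The count of ductular reaction genes past the 2-fold limit within cholangiocyte-like cells is not reported here.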

Additional observations from a re-analysis of the deposited data

Results flagged for a closer look

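Opposite changes in the diets, past 1.5-fold both ways for a share or past 2-fold both ways for a gene described above, were found for 2 shares and 2 genes. A share needed at least 30 cells in each diet. A gene needed at least 50 UMIs over the 2 libraries of each diet and 10 CPM in 1 of them. Smaller opposite changes are not listed here, and none of these differences was tested, since each diet and week is 1 library. Monocyte- or macrophage-like cluster 15 had a share ratio of 1.55 in MASH and 0.124 in chow, where it held 82 and 13 cells. Cholangiocyte-like cells had a share ratio of 2.82 in MASH and 0.0217 in chow, where 36 cells and 1 cell were found. In neutrophil-like cluster 9, Thbs1 had a ratio of 0.321 in MASH and 3.45 in chow. In endothelial-like cells, the vessel growth gene Apln had a ratio of 9.72 in MASH and 0.404 in chow, from 9 and 42 MASH UMIs.

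The 12-week MASH matrix also held columns of at least 200 UMIs that fell short of the cell threshold, which entered no comparison. The hepatocyte gene Alb was at 868 CPM in these columns and at 217 CPM in the cells of the same library.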

How the results depend on the processing

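No paired analysis was possible because each group is 1 library. Of the alternative values of shares and gene counts, 195 stayed near the reported value and 63 moved. Of those of named genes and list medians, 1008 stayed near it, 319 moved and 1 reversed, and the report gives, beside each named gene that lost a 2-fold call, a setting under which it did. The cause was not tested. Class share ratios moved as follows: T-cell-like cluster 10 to 0.557 (stricter filter), 0.168 (doublets kept) and 0.537 (hashtags 5 to 8); cluster 5 to 0.288 (doublets kept), 0.16 (hashtags 1 to 4) and 0.213 (single-hashtag cells, chosen after seeing the data). Hashtags 1 to 4 gave 1.04 for cluster 15, 0.256 for cluster 21 and 0.40 for basophil- or mast-like cells. Hashtags 5 to 8 gave 2.68 for cluster 23, 0.163 for erythroid-like cells, 2.21 for cholangiocyte-like cells and 0.243 for basophil- or mast-like cells. Dendritic-like cluster 12, reported at 1.55, was at 1.27 with doublets kept and 1.28 at resolution 0.5. Cluster 16, reported at 0.181, was at 0.363 under the stricter filter. Over all cells, 12-week class shares gave 102 higher, 109 lower and 49 higher beyond chow, and Ltf turned to 0.82. A minimum of 10 UMIs gave 2127, 1420, 1001 and 537 (the last lower beyond chow). Genes lower beyond chow numbered 95 with hashtags 1 to 4 and 36 with per-cell means. Within classes, a minimum of 20 UMIs gave, higher and lower, 488 and 490 (cluster 15), 787 and 522 (cluster 6), 777 and 323 (cluster 9), 585 and 250 (cholangiocyte-like), 437 and 938 (cluster 21), 493 and 600 (hepatocyte-like), 362 and 303 (endothelial-like), 528 and 203 (T-cell-like cluster 2), 553 and 305 (cluster 14) and 496 and 364 (B-cell-like). With doublets kept, cluster 6 had 101 higher and 70 lower, and cholangiocyte-like cells 163 lower. Hashtags 1 to 4 gave 103 higher in cluster 6, 99 higher and 67 lower in cluster 9, 932 lower in cluster 21, 88 higher in hepatocyte-like cells, 350 lower in endothelial-like cells and 175 lower in T-cell-like cluster 2. Hashtags 5 to 8 gave 90 higher in cluster 9, 103 higher in cholangiocyte-like cells, 277 lower in endothelial-like cells and 134 higher in cluster 14. Resolution 0.5 gave 99 higher in cluster 6 and 159 lower in cluster 9. Single-hashtag cells gave 152 higher and 345 lower in cluster 21.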

Other observations

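Circadian clock genes, a set chosen after its values were seen, differed between the weeks in both diets. Over all cells the clock output factor Dbp was at 9.62 and 38 CPM in MASH and 12.2 and 35.5 CPM in chow, and the repressor Nr1d1 at 9.93 and 24.7 CPM and 8.47 and 24 CPM. The activators Arntl and Clock were at 18.6 and 13.1 CPM and 28.1 and 17.6 CPM in MASH, and at 23.9 and 18.9 CPM and 25.3 and 17.9 CPM in chow. Not all other repressors followed Nr1d1: over the cell classes, Per1 had a ratio below 1 in 16 of 23 MASH and 16 of 17 chow classes, Ciart had median ratios of 0.706 and 0.792, and Nr1d2 had medians of 1.02 and 0.86. Per3 had medians of 1.46 over 5 MASH classes and 1.8 over 3 chow classes. Per2 had a median of 1.07 over 3 MASH classes and a ratio of 0.985 in 1 chow class. The labels used here give no time of day of collection, and its part in these values was not tested.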
